A study of Mus musculus with 40 samples.

Results

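The comparison described here set high-fat diet (HFD) against chow in the messages that remained after astrocyte ribosomes had been pulled out of the mouse hypothalamus. It took in the 6 HFD and the 7 chow supernatant libraries of sham-operated mice, 13 of the 40 libraries of the study. The mice carried Aldh1l1 eGFP-L10a, a transgene in which regulatory sequence of the astrocyte gene Aldh1l1 drives a fluorescently tagged protein of the large ribosomal subunit. Translating ribosome affinity purification (TRAP) uses the tag to pull down the ribosomes of the cells that make it, here astrocytes, and the supernatant is what the pull-down leaves behind. All 13 libraries came from mice that had sham surgery, carried the transgene and were fed their diet for 4 weeks. A further 7 supernatant libraries came from orchiectomised (testes removed) HFD mice and entered the fit only to estimate the spread between libraries. The number that each library carries in its label is given here after its diet, as in chow library 15. The labels do not say whether 1 library was made from 1 mouse or from several, and p-values measure only the spread between these libraries.

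The hypothalamus senses leptin, insulin and nutrients and sets food intake and energy use. In its arcuate nucleus, neurons that make Pomc and Cartpt lower food intake, and neurons that make Agrp and Npy raise it. In rodents, fat-rich food is known for changing the activity of these neurons and for making local astrocytes and microglia reactive, which is called gliosis. The question of the comparison was which of these messages, or any others, differed between the diets outside the astrocyte pull-down.

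The libraries held 8739269 to 10975785 estimated counts each, and 14628 of 26792 gene symbols had enough counts to be tested. The content was that of hypothalamus, with Pmch, the melanin-concentrating hormone precursor of the lateral hypothalamus, at 524 to 785 CPM (counts scaled to a common library size) and Oxt, the oxytocin precursor, at 367 to 631 CPM over the 13 libraries. The astrocyte list stayed above 0: its 20 markers summed to 2056 to 5533 CPM on chow and 2350 to 6524 CPM on HFD, so the supernatant was not free of astrocyte RNA. Counts per library, genes detected, the mitochondrial messages and 5 other library measures overlapped between the diets (exact permutation tests over 1716 splits, two-sided, adjusted p 0.412 to 0.883 over 8 measures).

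No gene passed the test for a difference between the diets. Of 14628 genes, 0 (0%) had a Benjamini-Hochberg adjusted p under 0.05 in edgeR's quasi-likelihood test, and the smallest adjusted p was 0.904. DESeq2 and limma voom also called 0 genes. An unadjusted p under 0.05 was reached by 206 genes (1.41%), of which 89 (0.608%) had a higher and 117 (0.8%) a lower value on HFD. DESeq2 gave 195 such genes and voom 217. Where no gene differs, a share of about 0.05 of the genes is reached by chance on average, and these counts lie below it. The median log2 difference (HFD minus chow) was -0.0012, with 49.7% of genes above 0. The scaling to a common library size (TMM) sets most fold changes near 0, so this centre is no result on the diet. In 4 genes (0.0273%) every HFD library lay above every chow library, and in 2 genes (0.0137%) every HFD library lay below. None of the genes described below is therefore a called difference, and their values are given as measured.

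The data also bound how large a difference could have been missed. For 89.3% of tested genes the 95% interval of the log2 difference lay within -1 and 1, that is, inside a doubling or halving of the level, and for 53.5% it lay within -0.5 and 0.5. Among the 10593 genes with a mean of at least 5 CPM the first share was 95.2%. The median standard error (SE) was 0.166. A log2 difference beyond 1 in either direction was fitted for 49 genes, 12 of which had a mean of at least 5 CPM, and all 12 missed the test. Of these 12, 7 were clustered protocadherins such as Pcdha4 (2.20 ± 1.24, log2 ± SE) and Pcdha9 (-1.94 ± 0.94). The members of an alpha or gamma protocadherin cluster share their last exons, so a read at the 3' end fits several of them and the split of reads between them is uncertain. Of the 12, 8 were at 0 in at least 1 library.

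**Figure D1:**
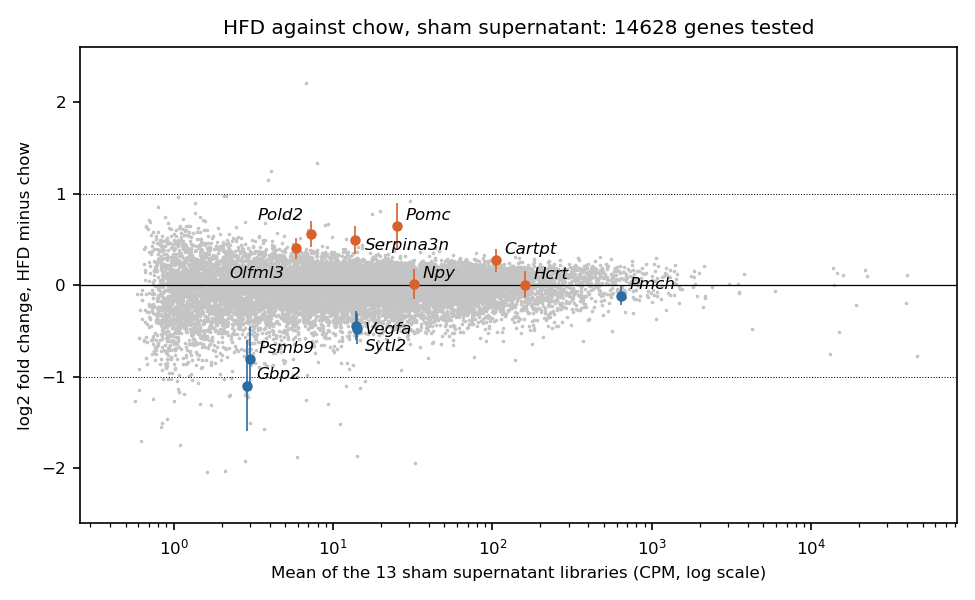
Each grey point is 1 of the 14628 genes, with the mean level over the 13 libraries (CPM, log axis) against the log2 fold change (HFD minus chow). Coloured points are genes named in the text, orange above and blue below 0, with bars of 1 SE, and dotted lines mark -1 and 1. The cloud is centred on 0, as the scaling sets it, narrows as the level rises, and holds 49 genes beyond the dotted lines, none of which passed the test.

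Among the arcuate feeding peptides, Pomc had the largest log2 difference and it rested on 2 of the 6 HFD libraries. Pomc, which encodes the precursor of the appetite-lowering melanocortins, measured 15.4, 20.0 and 26.6 CPM (lowest, median, highest) on chow and 16.3, 24.3 and 57.0 CPM on HFD. HFD libraries 1 and 20, at 57.0 and 44.0 CPM, lay above all chow libraries, HFD library 16 was just above the highest chow library at 27.0 CPM, and the other HFD libraries fell within the chow range. The log2 difference was 0.64 ± 0.25 (SE, n = 6 HFD and 7 chow; edgeR adjusted p = 0.904). It was 0.37 without HFD library 1, 0.52 without HFD library 20, and 0.36 with the level of mt-Rnr2 (described further on) in the fit. Pomc is also made by the pituitary. Of the 12 pituitary markers 5 could be tested, and Cga, the alpha subunit of pituitary glycoprotein hormones, was at 6.12 CPM in HFD library 1 and 3.53 CPM in HFD library 20 against 3.20 to 10.6 CPM on chow. Within HFD, library 1 had the highest Cga, and it also had the highest Tshb, the beta subunit of thyrotropin, at 1.58 CPM against 0.27 to 1.80 CPM on chow. The other tested markers did not go the same way. Chga was at 161 CPM in HFD library 1, the lowest within HFD, against 165 to 197 CPM in the other HFD libraries. Cyp2f2 was at 0.56 CPM there, inside the HFD range of 0.20 to 1.27 CPM. Tshb, Chga and Cyp2f2 are outside the rule for named genes. The part of pituitary RNA in the Pomc values was not tested. In the pull-downs the library with the number 1 had the highest Pomc of the 13, at 77.2 CPM, against 11.1 to 25.3 CPM on chow. The labels do not say that a shared number is 1 mouse. Across genes of at least 5 CPM, the deviations of both libraries numbered 1 from their group means had r = -0.132.

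Cartpt, the precursor of the CART peptide that many Pomc neurons also make, measured 72.2, 96.7 and 120 CPM on chow and 89.3, 120 and 147 CPM on HFD. Its groups overlapped over most of their range, and the log2 difference of 0.27 ± 0.13 (edgeR adjusted p = 0.904) missed the test.

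The appetite-raising peptides did not pass the test either. Npy measured 28.5, 31.5 and 41.4 CPM on chow and 23.2, 32.2 and 43.0 CPM on HFD, with a log2 difference of 0.01 ± 0.16 and a 95% interval of -0.33 to 0.35. The HFD libraries were more spread than the chow libraries, on both sides. Agrp, the melanocortin antagonist, was scarce at 1.39 to 4.20 CPM on chow and 1.69 to 4.12 CPM on HFD, with a log2 difference of 0.21 ± 0.25 that leaves a wide interval of -0.31 to 0.73.

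Of the circuit's receptors Insr, Lepr and Mc4r, only Insr had a narrow interval around 0. Insr, the insulin receptor, differed by -0.01 ± 0.11 (log2, 95% interval -0.24 to 0.22) at 11.0 to 15.9 CPM over all 13 libraries. Lepr, the leptin receptor, was at 0.392 to 2.28 CPM, and its interval of -1.002 to 0.85 spans a halving and nearly a doubling. Mc4r, the melanocortin receptor on which Pomc products act, differed by 0.05 ± 0.25. Of the 22 members of the arcuate feeding circuit list, 11 were above and 11 below 0, with a median of 0.0023 against -0.0012 over all genes. An unadjusted p under 0.05 was reached by 3 of the 22 (Pomc, Cartpt and Serpina3n), all higher on HFD. The shares over all genes were 1.41%, and 0.608% higher on HFD. With the mt-Rnr2 level in the fit, edgeR's unadjusted p was 0.085 for Pomc, 0.108 for Cartpt and 0.0034 for Serpina3n. In that fit 13 of 22 were above 0 with a median of 0.07. The list was written with earlier results of these data known.

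**Figure D2:**
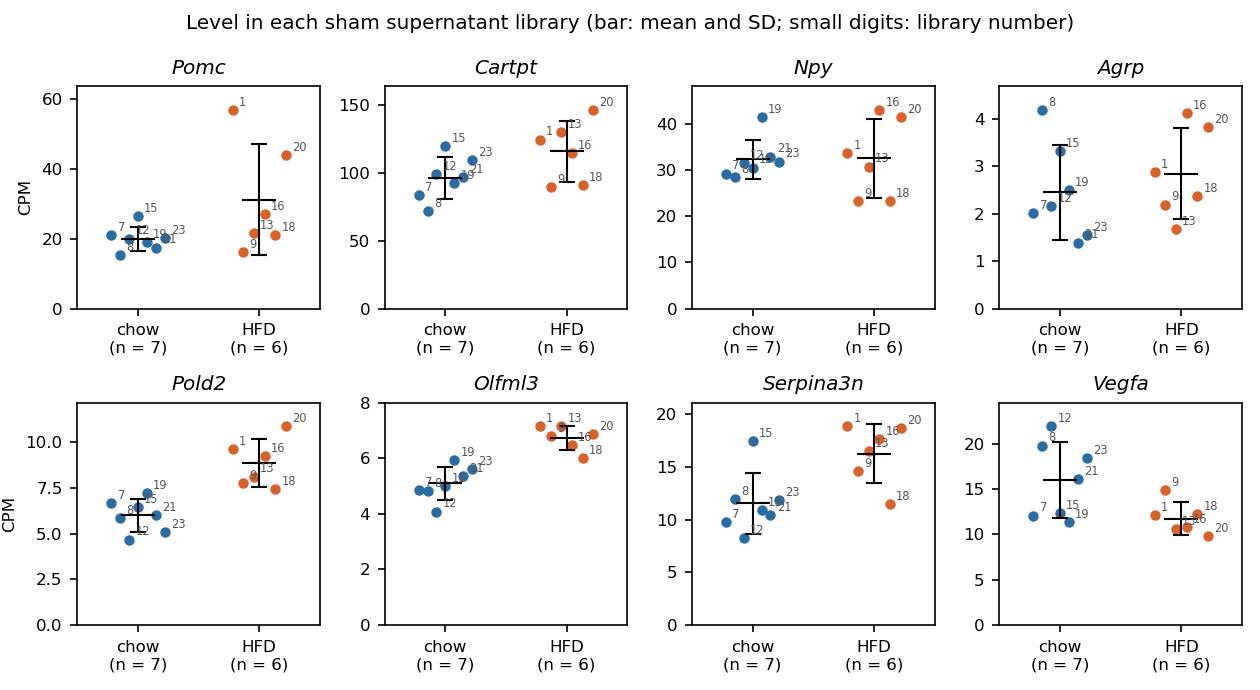
Level (CPM) of 8 genes in each of the 7 chow (blue) and 6 HFD (orange) sham supernatant libraries. Black bars give the mean and SD and small digits the library number. Pomc stands high in HFD libraries 1 and 20, Npy and Agrp overlap fully, Pold2 and Olfml3 do not overlap between the diets, and Serpina3n and Vegfa overlap in part.

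Neuropeptides of the other hypothalamic nuclei had small differences on both sides of 0. Hcrt, the orexin precursor, differed by 0.00 ± 0.15 (log2 ± SE; 142 to 193 CPM on chow, 123 to 185 CPM on HFD). Pmch differed by -0.11 ± 0.11 and Oxt by -0.08 ± 0.12. Crh, the corticotropin-releasing hormone of the stress axis, differed by 0.00 ± 0.14, Sst (somatostatin) by 0.10 ± 0.26 and Avp (vasopressin) by -0.20 ± 0.13. For Hcrt, Pmch, Oxt, Crh and Avp the 95% intervals lay within -0.5 and 0.5. Over the 26 tested members of this list 17 were above 0 with a median of 0.05, and none reached an unadjusted p under 0.05. With the mt-Rnr2 level in the fit 9 of 26 were above 0 with a median of -0.07, and Avp came to -0.27 and Oxt to -0.17, neither of which passed the test. Nmu, a feeding-related peptide near the detection limit, had the smallest p of the list at 0.70 to 1.39 CPM on chow and 0.93 to 2.56 CPM on HFD (log2 difference 0.54 ± 0.30, edgeR adjusted p = 0.904).

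In leptin and insulin signalling, Socs3 is the gene that leptin induces through STAT3 and that then dampens the receptor. It measured 0.641, 1.46 and 2.68 CPM on chow and 1.86, 2.04 and 2.55 CPM on HFD. All HFD values fell inside the chow range, near its upper end, and the log2 difference was 0.43 ± 0.24 (edgeR adjusted p = 0.904). Jak2, the kinase bound to the leptin receptor, differed by -0.18 ± 0.10. Of the 22 members, 12 were above 0 and the median was 0.02.

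The smallest p of all genes belonged to Pold2, which encodes a subunit of DNA polymerase delta (chromosome 11, 5872180 to 5878292, minus strand, GRCm38). Pold2 measured 4.68, 6.00 and 7.22 CPM on chow and 7.43, 8.69 and 10.9 CPM on HFD. Every HFD library was above every chow library, by a narrow gap. The log2 difference was 0.56 ± 0.14 (SE; 95% interval 0.26 to 0.85), with an adjusted p of 0.904 in edgeR's quasi-likelihood test. Leaving out 1 library at a time gave 0.50 to 0.61. In the astrocyte pull-downs of the same diets the log2 difference was -0.08 ± 0.14.

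Olfml3, an extracellular matrix protein that microglia make in brain (chromosome 3, 103722222 to 103738001, minus strand), also did not overlap: 4.08, 5.0 and 5.92 CPM on chow against 5.99, 6.82 and 7.14 CPM on HFD. Its log2 difference was 0.40 ± 0.12 (edgeR adjusted p = 0.904). The gap between the groups was far smaller than the spread within either. Other microglial markers were closer to 0 or below it: Aif1 differed by 0.03 ± 0.12, Tmem119 by 0.01 ± 0.14 and Itgam by -0.31 ± 0.15, and of 18 microglia and macrophage markers 12 were above 0 with a median of 0.03, which became 2 of 18 and -0.07 with the mt-Rnr2 level in the fit. The other 2 genes with all HFD libraries above chow were Gpr153, an orphan receptor, at 7.72 to 10.39 CPM on chow and 10.43 to 11.27 CPM on HFD, and BC004004 at 42.5 to 47.0 CPM against 48.2 to 52.8 CPM. Those with all HFD libraries below were Polr3f and AC241534.1 (3.64 to 4.51 CPM on chow, 2.78 to 3.49 CPM on HFD). Gpr153, BC004004 and AC241534.1 were picked out after their values were seen. Polr3f, a subunit of RNA polymerase III, was at 22.1 to 26.1 CPM on chow and 12.9 to 21.8 CPM on HFD, a log2 difference of -0.33 ± 0.12 (edgeR adjusted p = 0.904).

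Serpina3n, a secreted serine protease inhibitor made by reactive astrocytes and also by some hypothalamic neurons (chromosome 12, 104406729 to 104414329, plus strand), followed these 2 by p among the genes with higher values on HFD and at least 5 CPM. It measured 8.27, 10.9 and 17.5 CPM on chow and 11.5, 17.0 and 18.8 CPM on HFD. Of the 6 HFD libraries 5 lay above all chow libraries except chow library 15, which reached the HFD level. The log2 difference of 0.49 ± 0.15 (edgeR adjusted p = 0.904) became 0.63 without chow library 15.

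The remaining genes nearest to a call had no common theme by their known roles. With higher values on HFD were Fam163a (0.60 ± 0.19, log2 ± SE), Mettl17, a mitochondrial ribosome assembly factor (0.52 ± 0.17), Ccne1, the cell-cycle protein cyclin E (0.30 ± 0.11), Rdh10, which makes retinaldehyde (0.35 ± 0.14), the synaptic adhesion gene Lrfn2 (0.34 ± 0.13) and the RNA exosome subunit Exosc5 (0.35 ± 0.14). With lower values were Sptbn4, a spectrin of axon initial segments (-0.41 ± 0.13), the mitochondrial translation factor Gfm2 (-0.42 ± 0.15), Fank1 (-0.32 ± 0.11), the vesicle-docking gene Sytl2 (-0.47 ± 0.17), Nfrkb, a subunit of a chromatin remodeller (-0.32 ± 0.12), Letm2 (-0.32 ± 0.12), Plppr5 (-0.53 ± 0.20) and the endosomal sodium-proton exchanger Slc9a9 (-0.48 ± 0.19). Their adjusted p was 0.904 throughout. Plppr5 had the opposite sign, 0.78, in a second table that the authors deposited, so its direction depends on the table.

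Vegfa, the vascular growth factor (chromosome 17, 46016993 to 46032369, minus strand), measured 11.3, 16.1 and 21.9 CPM on chow and 9.80, 11.5 and 14.9 CPM on HFD. The 4 chow libraries with the highest Vegfa (8, 12, 21 and 23) lay above all HFD libraries and the other 3 lay among them. The log2 difference was -0.44 ± 0.16 (edgeR adjusted p = 0.904), against 0.15 ± 0.14 in the pull-downs. Endothelial markers did not go with it: 9 of 14 were above 0, with a median of 0.10. Slco1a4, an organic anion transporter of brain vessels, was at 10.1 to 15.9 CPM on chow and 13.1 to 19.1 CPM on HFD (0.29 ± 0.15).

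Gliosis and inflammation genes gave no shared direction. Gfap, the intermediate filament that reactive astrocytes make more of, measured 8.75, 13.6 and 26.2 CPM on chow and 12.5, 17.7 and 36.0 CPM on HFD, a log2 difference of 0.33 ± 0.28 (edgeR adjusted p = 0.904). Its highest values were in HFD library 1 and in chow libraries 8 and 23, and so were those of the whole astrocyte list, whose 20 markers summed to 6524 CPM in HFD library 1, 5533 CPM in chow library 8 and 4562 CPM in chow library 23 against 2056 to 3413 CPM in the others. HFD library 1 was the highest of the 13 in 16 of 20 astrocyte markers, and without it the Gfap difference was 0.10. How often this library was the highest over all genes tested was not counted. Aldh1l1, the gene whose regulatory sequence drives the tag, was at 15.6 CPM in HFD library 1 and at 1.70 to 9.23 CPM in the other 12, and its difference went from 0.46 ± 0.57 to -0.17 without that library. Of the 20 astrocyte markers 16 were above 0 with a median of 0.18, the highest of the 42 lists, and the median was -0.25 without HFD library 1 and -0.25 to 0.45 over the 13 fits that left out 1 library. With the mt-Rnr2 level in the fit the count was 19 of 20 and the median 0.28. The part of astrocyte RNA in the Gfap difference was not tested. In bulk RNA, fewer cells of a type and less RNA per cell cannot be told apart.

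Of the 20 gliosis genes 13 could be tested, 6 of them above 0, with a median of -0.01. Of these 13, 2 had an unadjusted p under 0.05, Serpina3n and C3, the central complement component. The shares over all genes were 1.41%, and 0.608% higher on HFD. C3 was scarce, at 0.602, 1.35 and 1.44 CPM on chow and 1.21, 2.09 and 2.37 CPM on HFD (0.70 ± 0.27, edgeR adjusted p = 0.904). Of the 6 HFD libraries 5 were above all chow libraries and HFD library 1 was within them. Of the 24 inflammation and NF-kB genes only 12 had enough counts to be tested, 8 of them above 0, with a median of 0.07. Myd88, the adaptor of Toll-like receptors, differed by 0.43 ± 0.22 and Nfkb1 by -0.37 ± 0.21, in opposite directions, and neither passed the test.

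Of the interferon response genes 6 of 18 tested were above 0 (median -0.09) and of the class I antigen presentation genes 3 of 13 (median -0.09), and none passed the test. Gbp2 and Psmb9, the members furthest below 0 in these 2 lists, took most of their difference from 1 chow library. Interferons act through STAT and IRF factors that bind the interferon-stimulated response element (ISRE) and the gamma-activated site (GAS), and turn on guanylate-binding proteins and the immunoproteasome. Gbp2, a guanylate-binding protein, measured 0.732, 2.04 and 15.3 CPM on chow and 1.23, 1.68 and 2.48 CPM on HFD. Chow library 15 alone was at 15.3 CPM and the other 6 chow libraries, at up to 2.73 CPM, overlapped with HFD. The log2 difference went from -1.10 ± 0.49 (edgeR adjusted p = 0.904) to -0.10 without it. For Psmb9, a catalytic subunit of the immunoproteasome, chow library 15 was at 10.7 CPM, the other chow libraries at 1.93 to 3.64 CPM and HFD at 1.45 to 2.97 CPM, and its difference went from -0.80 ± 0.35 to -0.27. The same library was the highest of the 13 in 8 of 18 tested interferon response genes and in 7 of 13 tested class I antigen presentation genes. How often it was the highest over all genes tested was not counted. It also led for Gbp3 (7.94 CPM), Gbp4 (16.9 CPM), the GTPase gene Iigp1 (20.4 CPM), Psmb8 (11.1 CPM) and the peptide transporter gene Tap1 (5.79 CPM), where the other 12 libraries stayed at or under 3.99, 2.10, 5.67, 5.92 and 2.81 CPM. These 7 genes were picked out after their values were seen. The pull-down with the number 15 was also the highest of its 13 in 6 of the 7, with Gbp2 at 39.7 CPM, and the pull-down of chow 8 came next for Gbp2 at 21.1 CPM.

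**Figure D3:**
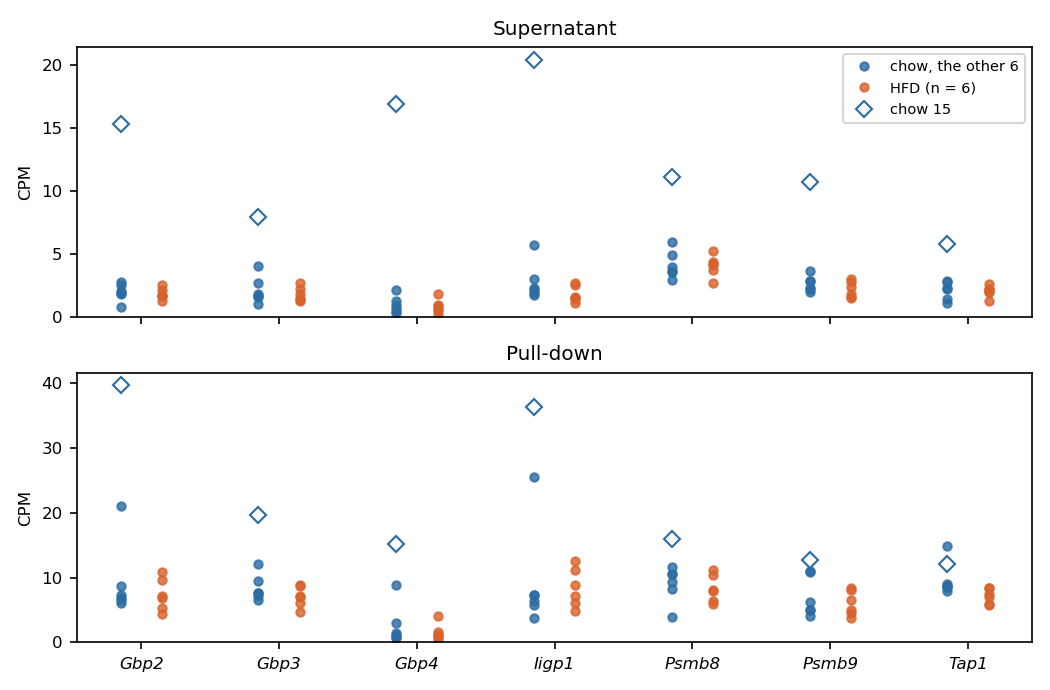
Level (CPM) of 7 interferon-induced genes in the 13 sham supernatants (top) and the 13 sham pull-downs (bottom), with chow in blue, HFD in orange and chow 15 as an open diamond. In the supernatants chow 15 lies above the other 12 libraries in all 7 genes, and in the pull-downs in 6, Tap1 being the exception.

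The sequence before the start site is shown for 2 of these genes because they hold the letters of an ISRE-like core (GAAA, 2 bases of any kind, GAAA) on either strand. The 250 bases before each start come from RefSeq on GRCm38.p6, 5′ to 3′ on the strand of the gene, with matches in capitals. They lie at chr3:142620413-142620662 for Gbp2 and chr3:142559794-142560043 for the first of 2 listed starts of Gbp3, both on the plus strand.
Gbp2: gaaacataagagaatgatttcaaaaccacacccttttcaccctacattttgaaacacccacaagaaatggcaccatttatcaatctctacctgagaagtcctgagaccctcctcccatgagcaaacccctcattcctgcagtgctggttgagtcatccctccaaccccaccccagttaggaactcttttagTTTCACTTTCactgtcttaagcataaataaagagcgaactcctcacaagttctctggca
Gbp3: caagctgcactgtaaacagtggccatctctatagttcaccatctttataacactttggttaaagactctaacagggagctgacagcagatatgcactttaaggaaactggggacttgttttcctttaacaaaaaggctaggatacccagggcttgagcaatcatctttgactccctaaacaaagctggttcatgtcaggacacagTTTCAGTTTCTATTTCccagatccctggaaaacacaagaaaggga
Gbp2 holds 1 match and Gbp3 2 overlapping matches, all on the reverse strand, so that they read here as TTTC, 2 bases, TTTC. This core is found in the same window of 2.98% of 32851 RefSeq promoters. The window before the other listed start of Gbp3 does not hold it. The windows of Psmb9 and Tap1, which face each other and overlap, hold neither this core nor the GAS letters (TTC, 3 bases, GAA), and Psmb8 holds 1 GAS match, as do 7.02% of promoters. Gbp4 and Iigp1 had no entry in the sequence table. A match is a description of the letters and not a binding site.

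Lipid and fuel genes, the systems closest to a change of dietary fat, showed small and mixed values. Of 23 fatty acid oxidation and ketone genes 13 were above 0 with a median of 0.02. Ppard, a fatty acid sensing nuclear receptor, was at 3.32 to 6.42 CPM on chow and 5.29 to 8.92 CPM on HFD, with overlapping groups (0.45 ± 0.22, edgeR adjusted p = 0.904). Angptl4 and Plin4, both known targets of such receptors, had the smallest p of the lipid transport and storage list, with 0.73 ± 0.39 at 0.275 to 2.88 CPM and 0.69 ± 0.34 at 1.28 to 6.57 CPM. In that list 17 of 25 were above 0, with a median of 0.08. Cholesterol synthesis had 10 of 23 above 0 with a median of -0.0095, Lss at -0.33 ± 0.20 and Stard4 at -0.35 ± 0.27. Fatty acid synthesis had 10 of 18 above 0 with a median of 0.0063. No member of these 4 lists reached an unadjusted p under 0.05.

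The axis along which the supernatant libraries varied most ran within both diets. The first principal component over the 20 supernatant libraries and 10620 genes took 51.7% of the variance, and it ran with the share of mt-Rnr2, the mitochondrial 16S ribosomal RNA. That share was 1.29% to 10.4% of counts on chow and 1.08% to 6.69% on HFD, with means of 5.38% and 3.31%. The difference missed the test (exact permutation test, two-sided, p = 0.248, adjusted p = 0.412), which with 6 and 7 libraries does not show that the diets were alike on this axis. Chow library 12 had the highest mt-Rnr2 share of these 13 and the lowest share of oxidative phosphorylation genes, 0.930%, while HFD library 20 had the lowest mt-Rnr2 share and the highest share of those genes, 1.57%. Ribosomal protein genes went the same way, with 2.03% in chow library 12 and 2.97% in HFD library 20.

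Lists of fuel and translation genes are given with diet alone and then with the mt-Rnr2 level in the fit. Their relation to the mt-Rnr2 axis was not tested. Nuclear-encoded oxidative phosphorylation had 37 of 42 above 0 with a median of 0.12, glycolysis 21 of 22 with 0.14, and cytosolic ribosomal proteins 38 of 49 with 0.07, beside 49.7% of all genes above 0. Examples are Ndufb2, a complex I subunit (0.20 ± 0.10), Ldhb, a lactate dehydrogenase subunit (0.20 ± 0.12), and Rpl28 (0.17 ± 0.10). No member of these 3 lists reached an unadjusted p under 0.05. With the mt-Rnr2 level as a covariate, an alternative added after seeing the data, the counts were 26 of 42, 13 of 22 and 23 of 49, and the medians 0.01, 0.01 and -0.0051. Glutamate and GABA receptors lay on the other side with 12 of 29 above 0 and a median of -0.10, and came to 20 of 29 and 0.02. With that covariate, and with the first component in its place, edgeR again called 0 genes, at 222 and 216 unadjusted p under 0.05.

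**Figure D4:**
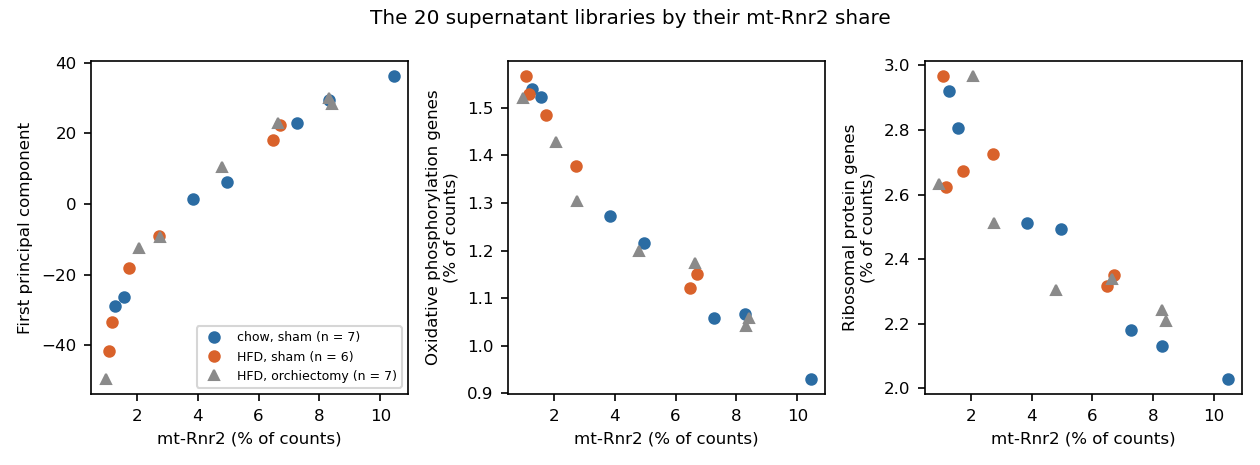
For each of the 20 supernatant libraries, the mt-Rnr2 share of counts (x axis, %) is set against the first principal component and the shares of oxidative phosphorylation and ribosomal protein genes (%). Chow sham libraries are blue, HFD sham orange and HFD orchiectomy grey triangles. All groups spread along the same course, with chow between 1.29% and 10.4% and HFD sham between 1.08% and 6.69%.

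Markers of cell types and of neighbouring regions bear on how evenly the dissections fell. Neuronal markers summed to 8170 to 11018 CPM on chow and 7929 to 9563 CPM on HFD, with 7 of 21 above 0 and a median of -0.08. Oligodendrocyte markers overlapped (9150 to 11989 CPM and 8286 to 11468 CPM), as did microglia and macrophages (445 to 575 CPM and 482 to 540 CPM). Thalamus and habenula markers had 12 of 14 above 0, with a median of 0.15 and summed levels of 1164 to 1888 CPM on chow and 1331 to 1810 CPM on HFD. Striatum and basal forebrain markers had 4 of 13 above 0 with a median of -0.18. Cortex and hippocampus markers had 5 of 11 above 0 with a median of -0.0044. Of 11 fibroblast and meningeal genes 4 were above 0 with a median of -0.12. Of the 11, 2 had an unadjusted p under 0.05, both below 0, against shares of 1.41% over all genes and 0.8% below 0. These were Igf2, a growth factor of meninges and choroid plexus (74.1 to 116 CPM on chow, 59.5 to 90.9 CPM on HFD; -0.30 ± 0.13), and the collagen gene Col3a1 (-0.44 ± 0.20), each with an edgeR adjusted p of 0.904. The log2 difference of Cga was -0.85 ± 0.39. The part of the dissection in any of these values was not tested.

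Genes of neuronal activity and hormone action had the following values. Immediate early genes had 5 of 20 above 0 with a median of -0.09, and chow library 12 was the highest of the 13 in 9 of the 20. Chow library 12 also had the highest mt-Rnr2 share of the 13 (10.4%), and how often it was the highest over all genes tested was not counted. Jun was at 57.0 CPM in that library against 25.4 to 38.0 CPM in the other chow libraries (-0.32 ± 0.17). Greb1, a gene known for its induction by oestrogen and androgen receptors, measured 1.29, 2.01 and 2.76 CPM on chow and 1.86, 2.98 and 4.39 CPM on HFD, and overlapped (0.64 ± 0.22, edgeR adjusted p = 0.904). Esr1, the oestrogen receptor alpha, differed by -0.27 ± 0.15. Of the 12 tested genes for sex steroid receptors and feedback neurons 6 were above 0. Among clock genes Arntl was at 4.83 to 8.15 CPM on chow and 6.57 to 10.8 CPM on HFD (0.27 ± 0.16), and 9 of 20 were above 0. The chemokine gene Ccl17 was at 4.68 to 7.05 CPM on chow and 3.09 to 5.0 CPM on HFD (-0.52 ± 0.22), and Gbp7 at 3.21 to 15.5 CPM and 3.43 to 10.3 CPM (-0.84 ± 0.37). None of these passed the test.

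**Figure D5:**
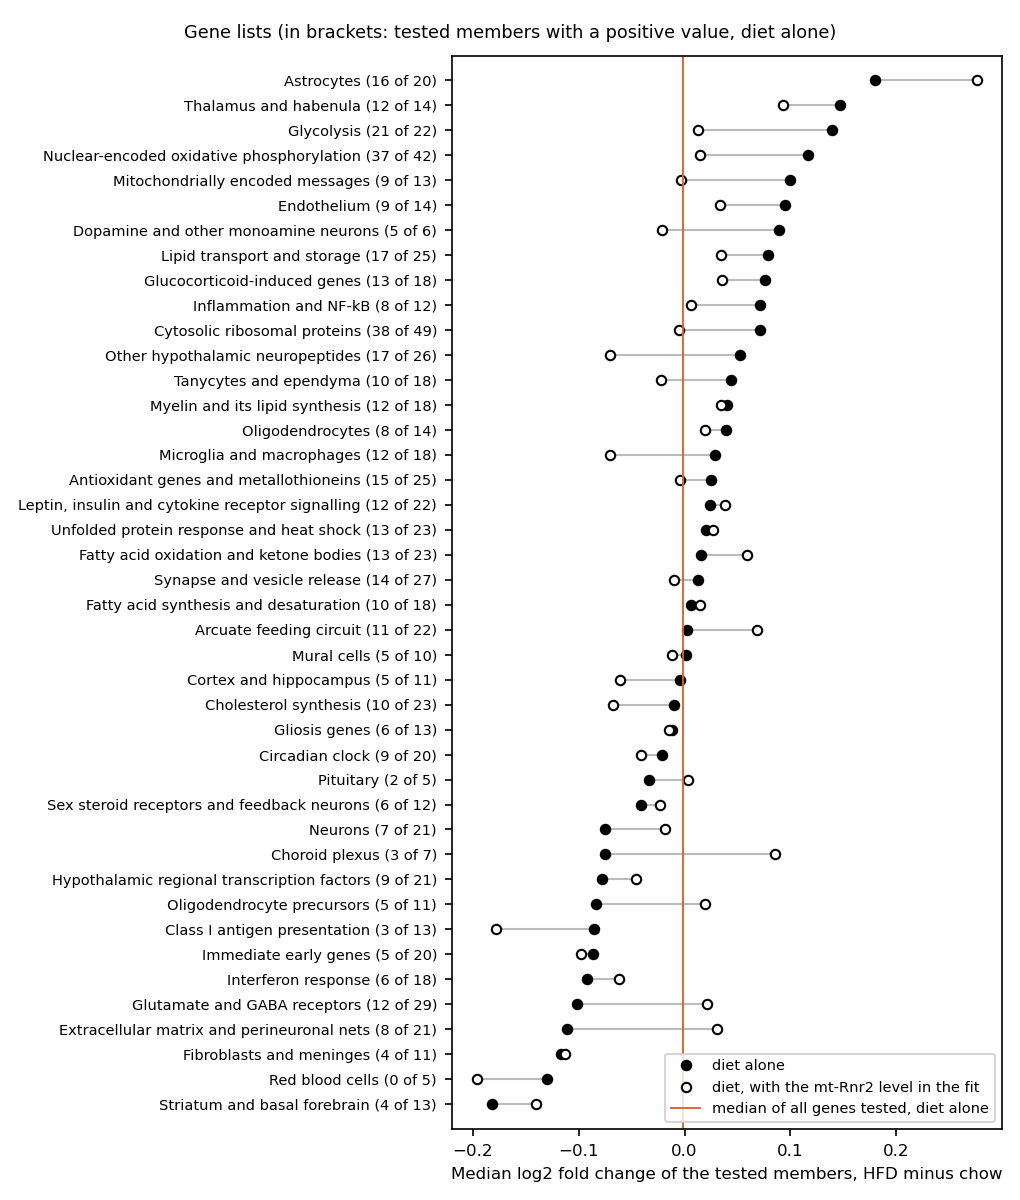
Median log2 fold change (HFD minus chow) of the tested members of each of 42 gene lists, with diet alone (filled) and with the mt-Rnr2 level in the fit (open). The orange line is the median of all 14628 genes. The lists lie between -0.18 and 0.18 with diet alone, and glycolysis and oxidative phosphorylation are among those whose open point lies nearer to 0, while that of the astrocytes lies farther out, at 0.28.

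Whether the diet acted differently outside and inside the astrocyte pull-down was tested by an interaction over the 26 sham and 14 orchiectomised libraries. The question was whether the supernatant difference minus the pull-down difference departed from 0. Of 15629 genes 0 (0%) were called by edgeR, the smallest adjusted p was 0.970, and 399 (2.55%) were under 0.05 before adjustment. Of the alternatives, DESeq2 called 4 genes and voom 0. All 4 (Thtpa, Gm7336, 1700047I17Rik2 and Pcdha12) were at 0 in every library of 1 diet group of the pull-downs and had edgeR adjusted p-values of 0.970.

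Ttll3, Oxsr1, Gpr62 and Pold2 were among the genes with the smallest p in this test. They had opposite signs in the fractions, which picking by the difference favours, so the signs are no separate result. Ttll3, a tubulin glycylase, differed by -0.69 ± 0.20 in the supernatant and 0.28 ± 0.17 in the pull-down (difference -0.97 ± 0.27). Oxsr1, a kinase that regulates chloride transporters, gave -0.57 ± 0.24 and 0.48 ± 0.23 (difference -1.04 ± 0.33). Gpr62, an orphan receptor found in oligodendrocytes, gave 0.12 and -0.65 (difference 0.78 ± 0.24), and Pold2 0.57 and -0.08 (difference 0.65 ± 0.20). Each had an adjusted p of 0.970. For Npy the supernatant gave 0.02 ± 0.19 and the pull-down -0.47 ± 0.21, but the difference of 0.49 ± 0.28 had an edgeR adjusted p of 0.970, so a different response of Npy in the fractions was not shown. Pomc had positive values in both, 0.65 in the supernatant and 0.95 ± 0.33 in the pull-down (difference -0.30 ± 0.47).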

How the data were processed

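Gene expression in mouse hypothalamus was measured by 3' RNA sequencing (QuantSeq, after mRNA capture on Dynabeads, per the labels' protocols). The authors deposited estimated counts per gene symbol. Trim Galore 0.6.4, Salmon 1.9.0 and the GRCm38 build are named in the submitters' processing notes, and neither strand handling nor the transcript annotation is stated there or in the labels. A second table that the authors deposited holds a scaled signal: for 25089 of 26783 shared symbols it equals the estimated counts times 1 factor per library (tolerance 0.01 counts), so it is no independent measurement, and it served only as an alternative. Groups came from the labels. Estimated counts were rounded to whole numbers (12.7% were not whole).

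Genes were filtered with filterByExpr (minimum count 10), scaled by TMM and tested with edgeR 4.0.16 (R 4.3.3, robust quasi-likelihood fit of the 3 supernatant groups, adjusted p under 0.05 over all genes tested). The fraction difference was an interaction in a fit of all 6 groups. CPM use TMM-scaled library sizes. The code was tested on simulated data whose spread between libraries was set below the estimated spread. That test therefore does not show which changes these libraries could detect. DESeq2 1.42.0, limma 3.58.1 (voom), other scalings and filters, the second table on log2(value + 1) and log2(value + 0.1), each library left out, and mt-Rnr2 or the first principal component as a covariate were alternatives. Positions came from GENCODE on GRCm38 and promoters from RefSeq. Named genes were the nearest to a call in each direction (10 by p, 5 by fold, at least 5 CPM), 2 of each list by p, 5 in each direction for the fraction difference, and 20 fixed genes; genes outside this rule are said to be. The text does not give values for every gene of this rule. The comparison, the 42 gene lists and the named genes were chosen with earlier results of these data known. The depth of 8739269 to 10975785 counts leaves a median SE of 0.166 on the log2 scale.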

Additional observations from a re-analysis of the deposited data

Results flagged for a closer look

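In 276 gene or library measures by diet group, 21 times 1 library lay far from the rest of its own group (Dixon's criterion at 95%, which chance alone meets in about 1 of 20 groups). Chow library 15 accounted for 9 of the 21. It was the highest chow library for Gbp2 (15.3 CPM), Gbp3 (7.94 CPM), Gbp4 (16.9 CPM), Iigp1 (20.4 CPM), Psmb8 (11.1 CPM), Psmb9 (10.7 CPM) and Tap1 (5.79 CPM), all induced by interferons, and for Serpina3n (17.5 CPM) and Polr3f (26.1 CPM). The interferon genes among these were picked out because of this library.

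HFD library 1 was the highest of its group 4 times, for the astrocyte genes Aldh1l1 (15.6 CPM, the others at 1.78 to 5.55 CPM) and Atp1b2 (363 CPM, the others at 127 to 189 CPM), and for Gpr62 (16.6 CPM) and Pomt1 (7.05 CPM). HFD library 20 was highest for Lrfn2 (17.3 CPM) and the microglial gene Tmem119 (14.8 CPM), and HFD library 18 lowest for Exosc5 (3.92 CPM). Chow library 12 was highest for Jun (57.0 CPM) and Mc4r (5.40 CPM). Chow library 19 was lowest for C3 (0.60 CPM) and highest for Npy (41.4 CPM), and chow library 21 was highest for Pou4f1 (2.25 CPM), a transcription factor of the habenula.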

How the results depend on the processing

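The count of called genes was 0 under every alternative run for the diet comparison. The number with an unadjusted p under 0.05 went from 206 to 728 with no filter on low counts and to 119 with a minimum count of 50, and lay between 119 and 540 when 1 library was left out (133 without chow 12, 390 without chow 15, 423 without chow 19, 390 without HFD 9, 540 without HFD 18 and 119 without HFD 20). The interaction with the pull-down gave 4 called genes in DESeq2 and 0 in the other fits. Same-numbered pull-down and supernatant libraries deviated together only weakly (20 pairs, r from -0.150 to 0.222, 6 over 0.1, 4 correlating best with their own number), and a fit with the replicate block called 0 genes, so it changed no call. Genes without overlap numbered 6, and 5 to 7 under the alternatives. A sign change was counted only where the fitted log2 difference exceeded its SE: Plppr5 gave 0.78 and 1.47 in the second table (pseudocounts 1 and 0.1) and Cdkn1a 0.0080 with mt-Rnr2 in the fit. The cause was not tested. Sox10 and Plin4 are listed at 0 in every sham supernatant of the second table and gave no value there. With mt-Rnr2 in the fit the median of oligodendrocyte precursor markers was 0.0194 and that of cholesterol synthesis -0.0675. Leaving out 1 library gave -0.0981 to -0.0133 for the precursors and -0.0583 to 0.0317 for cholesterol synthesis.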
